A study of Mus musculus with 22 samples.

Results

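Open chromatin was compared between hepatocyte-enriched nuclei of mice with mild steatohepatitis on a choline-deficient diet and those of low-fat controls, in 8 of the 22 ATAC-seq libraries of the series. The members are the 4 libraries labelled mild and the 4 labelled control for this diet, and all 68827 peaks of 200 bp in the un-normalized count table (mm10) were used. All mice were male HEP-INTACT animals, whose hepatocyte nuclei carry a tag by which bead-bound nuclei are pulled out of the liver. The driver of the tag and the age of the mice are missing from the sources used here. Mild and advanced mice ate the CDAHFD, a high-fat diet that lacks choline and supplies amino acids in defined amounts, for 7 weeks, and control mice ate low-fat food for 7 weeks. Fat content and choline therefore differ together between the groups, and the amino acid supply may differ too. Their parts in a change cannot be told apart. Liver histology was used to divide the mice on this diet, with steatosis and inflammation in mild livers and marked fibrosis besides in advanced ones (3 libraries). The other diet of the series, FPC (fructose, palmitate and cholesterol), was fed for 20 weeks, with 4 control and 4 mild libraries that share no mouse with the 8 libraries described here.

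Choline is needed to make phosphatidylcholine, which coats the very-low-density lipoprotein (VLDL) particles that carry triglyceride out of the liver. On a choline-deficient diet triglyceride stays in hepatocytes, and the diet is widely used because steatosis is followed by inflammation and fibrosis. In ATAC-seq a transposase cuts accessible DNA, so reads pile up at promoters and enhancers that transcription factors hold open. Accessibility near a gene is not its expression.

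The 8 libraries held between 5952280 and 9328963 counts. Pairs of mild libraries correlated at 0.945 to 0.969 (Pearson, log2 CPM) and pairs of control libraries at 0.925 to 0.965, against 0.755 to 0.844 between the groups. On the first principal component of all 22 libraries (62.1% of the variance) controls lay between 119.7 and 138.3, mild livers between -64.9 and -40.0 and advanced livers between -150.8 and -131.3. Mild replicate 4 lay apart from the other mild libraries on the second component (6.2, highest mild value 35.2). All 15 hepatocyte markers looked for had a peak within 50 kb.

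Mild livers differed from controls at 27999 peaks, which is 40.7% of all peaks (edgeR quasi-likelihood test, Benjamini-Hochberg adjusted p under 0.05). Of all peaks 14219 were higher (20.7%) and 13780 lower (20.0%). The gains were the larger changes: 5836 of the higher peaks rose more than 2-fold (41.0%) and 2346 more than 4-fold, against 2870 (20.8%) and 431 of the lower peaks. The mild and control libraries did not overlap at all at 11627 of the higher and 10494 of the lower peaks. A call favours such peaks and their share among all peaks was not counted, so these numbers are a description. Without mild replicate 4, 13118 peaks were higher and 12711 lower. Counts summed over the peaks near each gene rose for 3754 of 15686 genes (23.9%) and fell for 3296 (21.0%), together 44.9%. The median change of all genes was 0.01 and that of all peaks -0.01 on the log2 scale.

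A few promoter stretches from RefSeq (GRCm38.p6) are shown, picked after values were seen and not as typical of gained or lost promoters. Each run gives the 250 bases before the transcription start, 5′ to 3′ on the gene's strand, and capitals mark the AP-1 letters TGANTCA, the site of Fos and Jun dimers. The first 4 belong to promoters that rose and were picked because they hold those letters, which only 16.2% of the promoter windows that rose over 2-fold do, the fifth to a promoter that rose on this diet and fell on the other, and the last to a promoter that fell.
Anxa2, chr9:69453433-69453682, plus strand: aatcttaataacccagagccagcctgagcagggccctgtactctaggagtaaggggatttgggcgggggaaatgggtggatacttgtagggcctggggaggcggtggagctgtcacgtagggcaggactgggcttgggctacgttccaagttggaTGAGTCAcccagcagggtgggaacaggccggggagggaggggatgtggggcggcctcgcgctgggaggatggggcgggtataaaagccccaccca
S100a11, chr3:93520246-93520495, plus strand: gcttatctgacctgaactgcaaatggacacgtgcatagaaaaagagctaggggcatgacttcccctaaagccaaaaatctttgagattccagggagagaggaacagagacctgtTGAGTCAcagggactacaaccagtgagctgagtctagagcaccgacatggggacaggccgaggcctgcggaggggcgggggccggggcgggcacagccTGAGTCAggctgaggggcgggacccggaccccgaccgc
Ttc39aos1, chr4:109406258-109406507, minus strand: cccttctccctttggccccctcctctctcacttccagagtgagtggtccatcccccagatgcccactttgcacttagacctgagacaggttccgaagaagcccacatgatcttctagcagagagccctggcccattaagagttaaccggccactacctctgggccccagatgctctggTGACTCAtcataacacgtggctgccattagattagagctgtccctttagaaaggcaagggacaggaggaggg
Sema6b, chr17:56133853-56134102, minus strand: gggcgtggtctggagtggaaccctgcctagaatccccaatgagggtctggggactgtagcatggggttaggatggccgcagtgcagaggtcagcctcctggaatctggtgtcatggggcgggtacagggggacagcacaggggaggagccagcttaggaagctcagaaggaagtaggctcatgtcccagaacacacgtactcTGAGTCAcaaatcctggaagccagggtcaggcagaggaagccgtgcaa
Gsta2, chr9:78347146-78347395, minus strand: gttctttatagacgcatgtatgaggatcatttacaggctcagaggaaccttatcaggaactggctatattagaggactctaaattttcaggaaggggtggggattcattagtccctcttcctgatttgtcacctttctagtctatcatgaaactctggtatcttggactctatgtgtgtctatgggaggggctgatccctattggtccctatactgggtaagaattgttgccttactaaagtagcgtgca
Mlxipl, chr5:135089640-135089889, plus strand: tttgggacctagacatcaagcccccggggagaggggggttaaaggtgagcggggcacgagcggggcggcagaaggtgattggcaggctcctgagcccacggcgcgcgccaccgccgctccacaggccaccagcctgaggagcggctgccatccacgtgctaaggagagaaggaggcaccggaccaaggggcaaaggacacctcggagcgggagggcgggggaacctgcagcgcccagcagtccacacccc

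Values below are CPM, the counts scaled to each total after TMM normalization, library by library in replicate order, unless a log2 change is named. The peak at the Anxa2 start (chr9:69453503-69453703) held 1.41, 1.20, 0.95 and 1.70 CPM in controls and 25.5, 25.9, 28.2 and 23.7 CPM in mild livers, a log2 change of 4.30 ± 0.17 (SE, adjusted p = 2.18e-15). Anxa2 codes for annexin A2, a calcium-dependent membrane protein that adult hepatocytes make little of. The S100a11 promoter peak, of a calcium-binding partner of annexins, held 2.54, 2.99, 2.14 and 2.38 CPM in controls against 11, 11.5, 13.6 and 9.63 CPM in mild livers (log2 change 2.17 ± 0.19, adjusted p = 1.01e-09). At the start of Ttc39aos1, controls had 4.52, 2.69, 1.31 and 2.04 CPM and mild livers 25.5, 27.0, 25.9 and 23.2 CPM (log2 change 3.27 ± 0.18). The Sema6b promoter peak, of a transmembrane semaphorin, went from 4.80, 3.89, 2.61 and 2.38 CPM to 11.6, 13.1, 15.9 and 11.5 CPM (log2 change 1.91 ± 0.19). At all 4 promoters every mild library lay above every control library.

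The most gained peaks were almost closed in controls. By the naming rule (largest change among called peaks of above-median abundance whose groups do not overlap, 1 per nearest gene), the first was in intron 2 of 21 of Osbpl3, an oxysterol-binding protein, at chr6:50390420-50390620. It held 0.14, 0.30, 0.12 and 0.17 CPM in controls and 9.84, 7.31, 11.7 and 10.6 CPM in mild livers. Over the 4 libraries of each group that is 5 counts against 305, a fitted log2 change of 5.64 ± 0.36 (adjusted p = 6.50e-12), whose error is unreliable at so few control counts. A peak in intron 3 of 12 of Gpat3, an acyltransferase of triglyceride synthesis (chr5:100861865-100862065), went from 0.565, 0.897, 0.713 and 0.34 CPM to 15.3, 18.3, 21.4 and 15.7 CPM (17.5 against 539.5 counts, log2 change 4.74 ± 0.22). Intergenic peaks nearest to Agfg1 (chr1:82831931-82832131, 13.5 against 471 counts) and Rasa2 (chr9:96650049-96650249, 13.5 against 470.5 counts) changed by 4.97 and 4.87. A peak inside Pgm2, nearest to the Pgm1 start, changed by 4.80, and an intergenic peak 13209 bp from Mir181c by 4.69. The other named gains lay near 9130401M01Rik (4.65), in exon 10 of 52 of Tpr near BC003331 (4.62) and in AI314278 (4.34). All 10 were called higher in mild FPC livers too, by 2.49 to 4.62 on the log2 scale. The abundance in the naming rule was averaged over all 22 libraries, FPC and advanced ones included. Peaks almost closed in controls passed it more easily if open in those livers. The 15.1% of all peaks called higher on FPC is therefore no fair baseline.

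**Figure D1:**
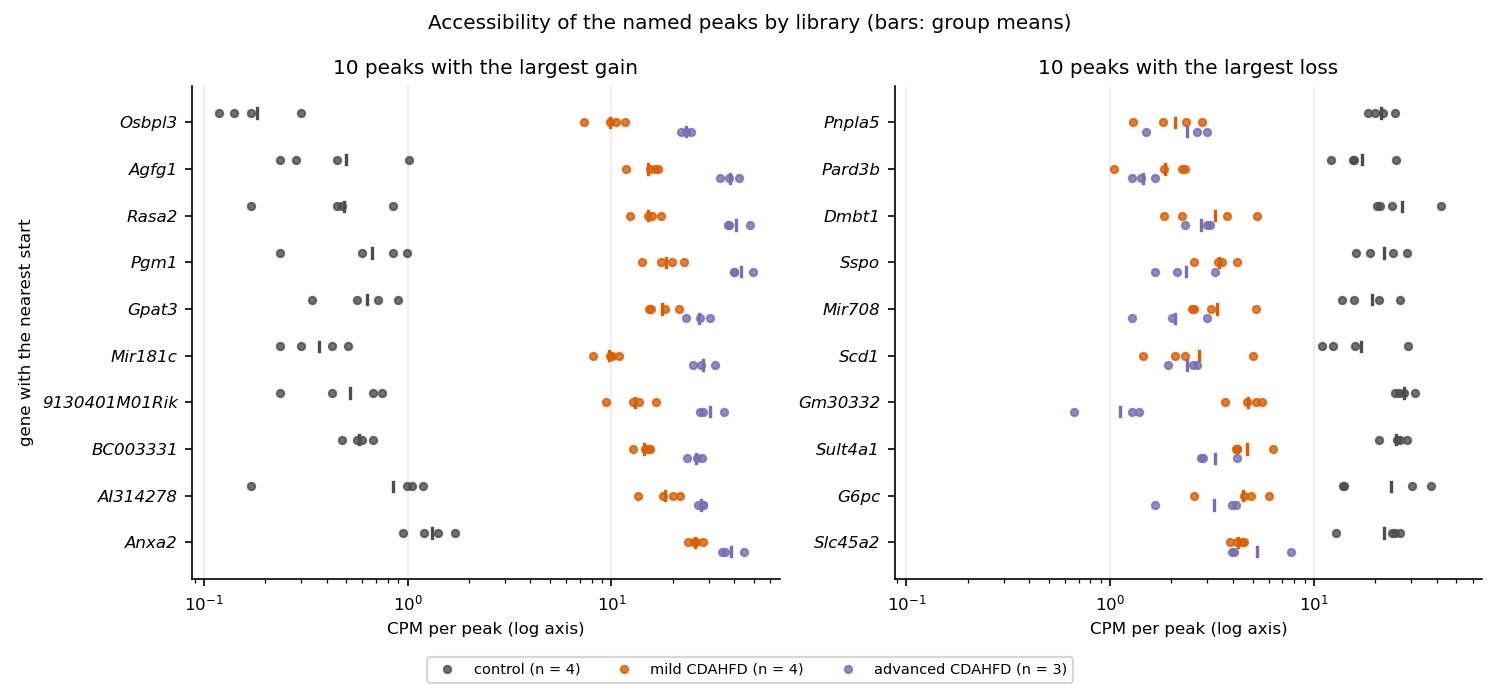
CPM of the 10 most gained (left) and 10 most lost (right) named peaks on a log axis, with 1 point per CDAHFD library and a bar at each group mean. Control and mild points do not overlap in any row, which the naming rule requires, and the Osbpl3 row runs from 0.12 to 24.6 CPM across the 3 groups.

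The most lost peaks included lipid and glucose genes. The largest loss was in intron 7 of 9 of Pnpla5, a lipase of the family that acts on lipid droplets, at chr15:84115149-84115349. Controls had 24.9, 21.8, 18.4 and 20.0 CPM there and mild livers 1.81, 2.35, 1.29 and 2.83 CPM, a log2 change of -3.30 ± 0.29 (adjusted p = 1.57e-09). A neighbouring peak in the same intron, assigned to the Sult4a1 start, changed by -2.40 ± 0.21. The Scd1 promoter peak (chr19:44407529-44407729) held 12.4, 10.9, 15.9 and 28.9 CPM in controls and 2.33, 2.09, 1.46 and 5.02 CPM in mild livers, a log2 change of -2.53 ± 0.30 (adjusted p = 1.90e-07). Scd1 codes for stearoyl-CoA desaturase, which makes monounsaturated fatty acids. A peak 11128 bp from the G6pc start at the end of that gene, which codes for glucose-6-phosphatase, changed by -2.40 ± 0.47, with wide spread among controls (13.8, 14.1, 30.4 and 37.5 CPM) and none of the 4 mild values above 6.01 CPM. The other named losses lay in or near Pard3b (-3.22), Dmbt1 (-2.97), Sspo (-2.68), Mir708 (-2.54), Gm30332 (-2.51) and Slc45a2 (-2.38). In mild FPC livers the Pnpla5, Sult4a1 and Scd1 peaks were higher (1.34, 1.43 and 0.72), the G6pc peak was not called (-0.26, adjusted p = 0.69) and the other 6 were lower. Of all peaks, 13.6% were called lower there.

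Genes with many peaks showed how broad such changes were. Dab2ip, whose product is a Ras GTPase-activating protein, had the most higher peaks: 18 of its 22 peaks rose and none fell (median log2 change 1.29, range -0.08 to 4.09). Its strongest gain lay in an intron 33437 bp before the nearest start, where the peak at chr2:35658457-35658657 went from 1.5 ± 0.96 to 26.5 ± 2.9 CPM (SD, n = 4 each). Dab2ip has several starts, and 4 of its 6 promoter peaks rose (0.83, 1.00, 1.06 and 1.38) while the other 2 were not called (0.05 and 0.32). Cmah, which codes for the enzyme that makes N-glycolylneuraminic acid, had the most lower peaks: 21 of 22 fell, with a median of -1.05 and a range of -2.17 to -0.39. Its promoter peak fell from 17.7 ± 1.4 to 9.79 ± 1.2 CPM (log2 change -0.85 ± 0.13). Vgll4, a TEAD cofactor, was the list gene with most calls in both directions, with 7 of 32 peaks higher and 6 lower (-2.44 to 3.73). At Vgll4 the intergenic peak at chr6:114988701-114988901 rose from 0.37 ± 0.12 to 4.95 ± 1.9 CPM, while an intronic one at chr6:114938344-114938544 fell from 11.1 ± 5.8 to 1.92 ± 1.2 CPM.

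**Figure D2:**
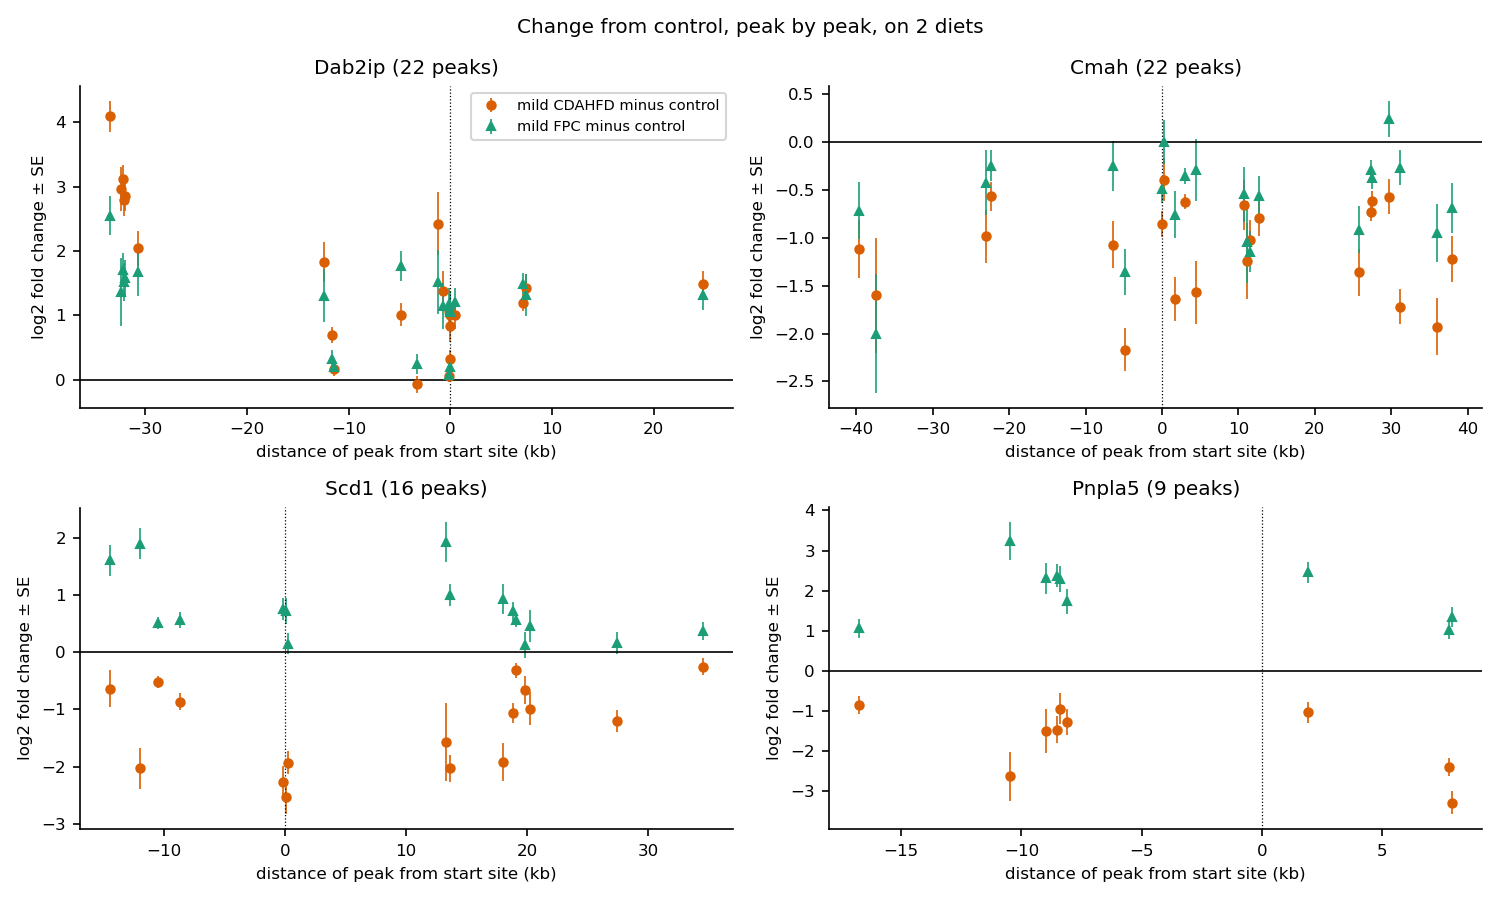
Log2 change from control (vertical axis, bars are SE) of each peak of selected genes against its distance in kb from the nearest start, for mild CDAHFD and mild FPC livers. At Scd1 and Pnpla5 the diets lie on opposite sides of 0, with medians of -1.13 and -1.48 on the CDAHFD, and at Dab2ip and Cmah they lie mostly on the same side.

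Fatty acid and triglyceride synthesis, the pathway that turns sugar into stored fat, lost accessibility on the CDAHFD. Of 26 measured genes 14 fell and 3 rose (53.8% and 11.5%, against 21.0% and 23.9% of all genes), with a median log2 change of -0.21. Summed over its 5 peaks Acaca, acetyl-CoA carboxylase and the first committed enzyme of the pathway, held 82.8, 77.7, 89.8 and 95.2 CPM in controls and 36.3, 47.9, 46.8 and 43.8 CPM in mild livers, a log2 change of -0.98 ± 0.11 (adjusted p = 1.3e-07). Me1, malic enzyme, which supplies NADPH for synthesis, went from 119, 115, 114 and 129 CPM to 69.2, 72.5, 66.6 and 59.8 CPM (-0.83 ± 0.09). Elovl3, a fatty acid elongase, went from 67.0, 67.9, 80.8 and 85.1 CPM to 43.2, 45.2, 44.9 and 47.3 CPM (-0.73 ± 0.09). For each of these genes all mild values lay below all control values. Fasn, fatty acid synthase, changed by -0.54 ± 0.10 and Srebf1, the factor that drives the pathway under insulin, by -0.35 ± 0.07 (both named after their values were seen). The rises were Elovl1 (0.55 ± 0.06), which elongates very long chains, Scd2 (1.70 ± 0.23, from 118.5 to 430.5 counts), a desaturase little used by adult hepatocytes, and Fads2 (0.26 ± 0.09), a desaturase of polyunsaturated fatty acids.

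Scd1 and Pnpla5 lost accessibility along their whole neighbourhoods. At Scd1 12 of 16 peaks fell and none rose, and the lower ones reached from 11991 bp before the start to 27420 bp past it (median of the 16 -1.13). The gene's summed counts were 231, 186, 283 and 312 CPM in controls and 120, 118, 101 and 149 CPM in mild livers (-1.04 ± 0.13, adjusted p = 8.1e-07). All 9 Pnpla5 peaks fell (-3.30 to -0.86), and the sums went from 101, 104, 80.2 and 73.4 CPM to 21.2, 22.9, 22.1 and 28.2 CPM (-1.91 ± 0.22). Scd1 and Pnpla5 were shown peak by peak because of these values, so their counts are a description.

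Some synthesis genes changed in the opposite direction in mild FPC livers. There 12 of the 26 synthesis genes rose and 3 fell (of all genes 21.3% rose and 18.9% fell there). The difference between the diets, taken as the CDAHFD change minus the FPC change, passed its own test at 10 of the 26, against 5.27% of all genes. Pnpla5 rose on FPC by 1.69 ± 0.21 (difference -3.61, adjusted p = 6.7e-08), with all 9 of its peaks higher. Scd1 rose by 0.63 ± 0.13 (difference -1.67, adjusted p = 5.9e-06), with 11 of 16 peaks higher. Pnpla3, a lipid droplet hydrolase with a well-known human risk variant for fatty liver, changed by -0.36 ± 0.09 on the CDAHFD and 0.60 ± 0.10 on FPC (difference -0.96, adjusted p = 0.00012). Acaca (0.08), Elovl3 (0.01) and Me1 (-0.11) were not called on FPC and differed between diets by -1.06, -0.74 and -0.72. Fasn (-0.75), Srebf1 (-0.41), Acsl5 (-0.34) and Agpat2 (-0.42) differed too. The diets were fed for 7 and 20 weeks, so diet and duration cannot be told apart.

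**Figure D3:**
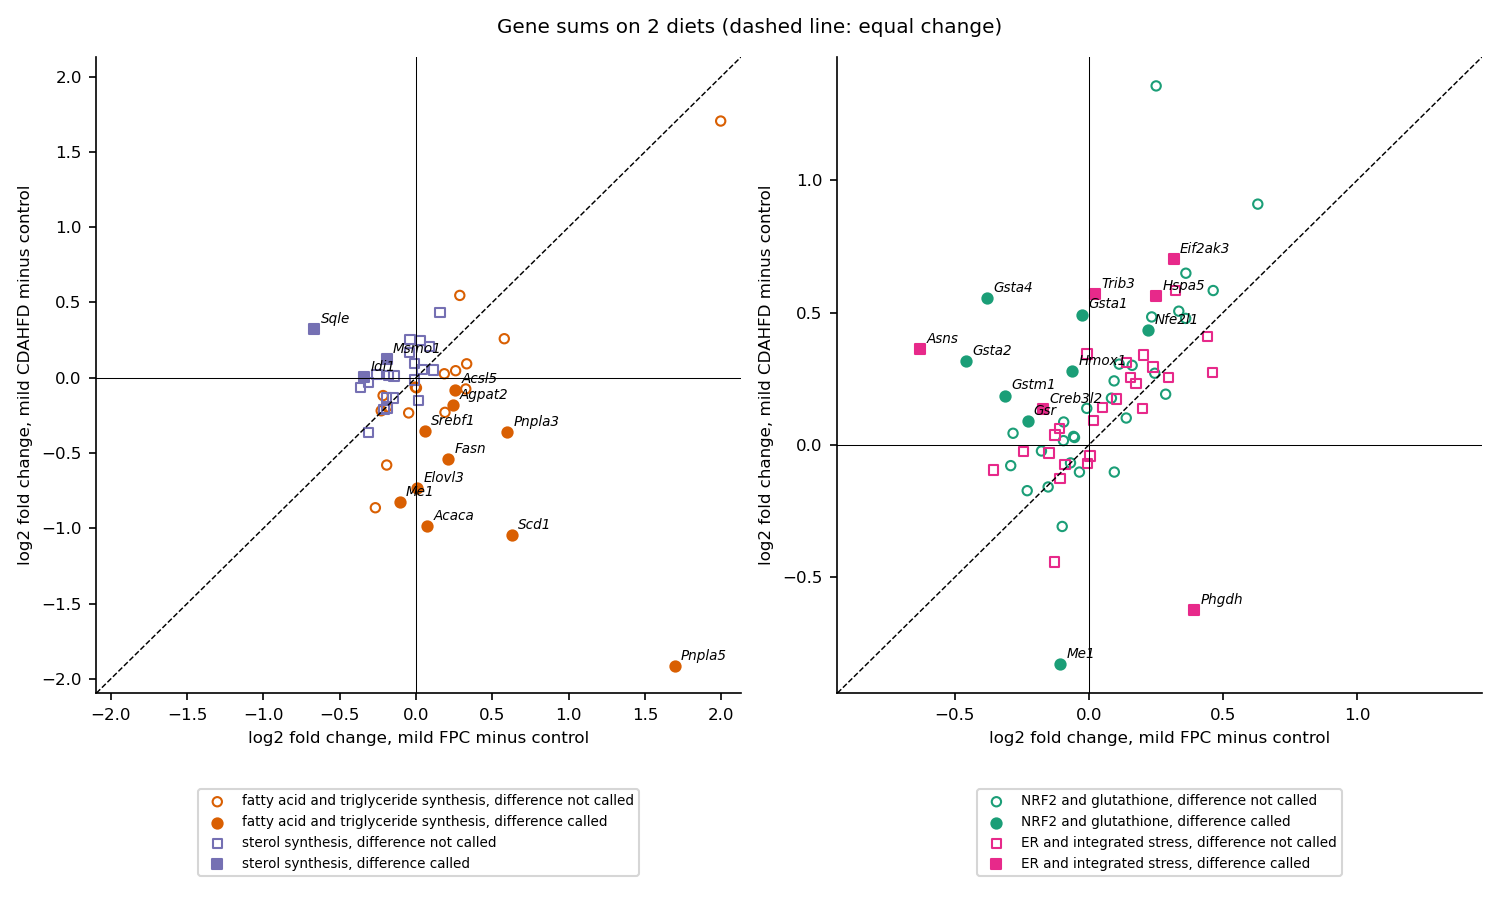
Log2 change of gene sums from control in mild CDAHFD livers (vertical) against mild FPC livers (horizontal), for lipid lists and stress lists, with filled symbols where the difference between diets was called and a dashed line where both changes are equal. Pnpla5 (-1.91 against 1.69) and Scd1 (-1.04 against 0.63) lie far below the line among synthesis genes, and Sqle (0.32 against -0.67) lies above it among sterol genes.

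Most glucose and insulin genes fell. Of 27 genes 16 fell and 2 rose (59.3% and 7.41%, median -0.18, against 21.0% and 23.9% of all genes). Pklr, the liver pyruvate kinase, went from 162, 207, 151 and 186 CPM to 86.7, 90.6, 95.5 and 81.6 CPM (-0.99 ± 0.15, adjusted p = 8.1e-06), and all 10 of its peaks fell. Ppp1r3b, which brings protein phosphatase to glycogen, changed by -0.68 ± 0.07. Grb14, an inhibitor of the insulin receptor, changed by -0.52 ± 0.08 and Pygl, glycogen phosphorylase, by -0.51 ± 0.08. The 2 rises included Trib3, a pseudokinase induced by amino acid and ER stress (0.57 ± 0.10). The differences between diets were called for Pklr (-0.77), Pygl (-0.40) and Trib3 (0.55). The promoter peak of Mlxipl, which codes for ChREBP, the sugar-sensing factor that drives Pklr, went from 31.2, 31.0, 36.0 and 26.5 CPM to 16.6, 18.2, 14.7 and 15.7 CPM (-0.94 ± 0.09). That peak was not called on FPC (0.07, adjusted p = 0.65) and differed between diets by -1.01 (adjusted p = 0.000105). Summed over its 12 peaks, Mlxipl was not called (-0.06 ± 0.06).

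Genes that use choline and methyl groups moved little. Of 38 genes of the choline and methionine cycle 2 rose and 6 fell (median -0.09), 5.26% and 15.8%, both below the shares of all genes. Those with the smallest p fell: Bhmt2, a methyltransferase that remakes methionine (95.3 ± 2.4 to 72.3 ± 4.1 CPM, -0.39 ± 0.07), Dmgdh, which breaks down dimethylglycine (-0.69 ± 0.15), Gnmt, the main consumer of methyl groups (-0.35 ± 0.09), Cbs, which starts transsulfuration (-0.38 ± 0.11), and Slc44a1, a choline transporter (-0.15 ± 0.05, not called within 10 kb or 1 kb of a start). Pemt, which makes phosphatidylcholine by methylation, held 165, 146, 178 and 175 CPM in controls and 150, 145, 145 and 174 CPM in mild livers and was not called (-0.11 ± 0.07, adjusted p = 0.21). Pcyt1a, the rate-limiting enzyme of the choline route, was not called either (0.05 ± 0.06, adjusted p = 0.45). Both were named after their values were seen. Among 26 genes of VLDL assembly 7 fell and 1 rose (26.9% and 3.85%), and the share that fell is near the 21.0% of all genes. Mttp, which loads lipid onto apolipoprotein B, went from 97.7, 101, 102 and 110 CPM to 78.3, 71.9, 68.9 and 80.5 CPM (-0.45 ± 0.09, adjusted p = 0.00027). Angptl8, a regulator of lipoprotein lipase, changed by -0.59 ± 0.11, Apoa1 by -0.34 ± 0.09 and Apom by -0.61 ± 0.19, while Apoc4 rose by 0.60 ± 0.19.

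Among lipid storage genes more rose than fell. Of 23 measured genes 11 rose and 2 fell (47.8% and 8.70%, median 0.17). Pparg, a nuclear receptor of fat storage, went from 127, 147, 127 and 141 CPM to 181, 182, 178 and 175 CPM (0.40 ± 0.06, adjusted p = 1.6e-05). Cd36, a fatty acid transporter, went from 82.3, 96.8, 74.2 and 95.2 CPM to 135, 127, 124 and 145 CPM (0.61 ± 0.11). Pnpla2, adipose triglyceride lipase, rose by 0.59 ± 0.07 and Fitm2, which helps droplets bud, by 0.49 ± 0.09. Mgll, monoglyceride lipase, changed by -0.33 ± 0.06. Among 27 genes of fatty acid oxidation and fasting 8 rose and 4 fell (29.6% and 14.8%, against 23.9% and 21.0% of all genes). Acaa1a, a peroxisomal thiolase, rose by 0.37 ± 0.06, Fgf21, a fasting hormone, by 0.46 ± 0.08 and Acot2 by 0.62 ± 0.16, while Ppargc1a, a coactivator of fasting genes, changed by -0.42 ± 0.08. Pparg was not called with only peaks within 10 kb of a start (0.26, adjusted p = 0.0502), nor Ppargc1a with only those within 1 kb (-0.25).

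Sterol synthesis genes moved in both directions. Of 23 measured genes 6 rose and 3 fell (26.1% and 13%, median 0.01, against 23.9% and 21.0% of all genes). Srebf2, the factor of cholesterol synthesis, went from 106 ± 8.2 to 144 ± 7.9 CPM (0.43 ± 0.07), and Sqle, squalene epoxidase, from 77.9 ± 9.5 to 97.7 ± 6.5 CPM (0.32 ± 0.07). Dhcr7 (0.21 ± 0.05), a late enzyme of cholesterol synthesis, rose, and Scap, the escort of SREBP, changed by -0.36 ± 0.06. In mild FPC livers 11 of the 23 fell and none rose. The difference between diets was called at 3 genes, Sqle (0.99, adjusted p = 5.9e-06), Idi1 (0.34) and Msmo1 (0.32). With only peaks within 1 kb of a start Scap was at 0.05 and Sqle at 0.09, and neither was called.

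Among genes of differentiated hepatocyte function more fell than rose. Of 42 secreted protein genes 17 fell and 1 rose (40.5% and 2.38%). Complement C8b went from 98.0 ± 8.6 to 63.9 ± 2.8 CPM (-0.61 ± 0.08), and coagulation factors F7 (-0.42 ± 0.07) and F10 (-0.35 ± 0.06), Ttr, the thyroxine carrier (-0.31 ± 0.05), and Gc, the vitamin D carrier (-0.31 ± 0.05, but 0.11 and not called within 1 kb of the start), fell. Of 29 amino acid and urea cycle genes 11 fell and none rose (37.9% lower), so most members of both lists did not pass the test. Arg1, arginase, went from 241, 227, 253 and 286 CPM to 154, 157, 142 and 184 CPM (-0.66 ± 0.11, adjusted p = 3.0e-05). Hal (-0.49 ± 0.08), Agxt (-0.50 ± 0.09) and Haao (-0.42 ± 0.07), which break down histidine, glyoxylate and tryptophan products, fell, and so did Glul, glutamine synthetase (-0.52 ± 0.09). Of 15 hepatocyte markers 8 fell and none rose (53.3% lower, against 21.0% of all genes). Their summed level was 3310 to 3850 CPM in controls and 2950 to 3230 CPM in mild livers. In bulk nuclei, fewer hepatocytes in the pull-down and less open chromatin per hepatocyte cannot be told apart.

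Of 26 bile acid genes 11 fell and 2 rose (42.3% and 7.69%, against 21.0% and 23.9% of all genes). Slc10a1, the transporter that takes bile acids up from blood, went from 110, 114, 118 and 107 CPM to 70.1, 63.7, 73.0 and 81.5 CPM (-0.64 ± 0.09, adjusted p = 6.0e-06). Slco1a1, an organic anion transporter, changed by -0.93 ± 0.10 and Akr1d1, a steroid reductase of bile acid synthesis, by -0.43 ± 0.08. Abcc3, which exports bile acids back to blood, rose from 112 ± 10.5 to 171 ± 10.8 CPM (0.60 ± 0.08). Cyp7a1, the rate-limiting enzyme of bile acid synthesis, was not called (0.10 ± 0.11, adjusted p = 0.48), and was named after its values were seen. Among 28 hepatocyte transcription factors 9 fell and 4 rose (32.1% and 14.3%), with small changes: Gata4 -0.36 ± 0.08, Nfib -0.22 ± 0.05, Tox 0.49 ± 0.09, Hhex 0.25 ± 0.06 and Nr1i3, the xenobiotic receptor CAR, 0.42 ± 0.12. Hnf4a, a master factor of hepatocyte identity, changed by -0.14 ± 0.05 (adjusted p = 0.023). Within 1 kb of a start Nfib was at 0.05, Hhex at 0.03 and Akr1d1 at -0.28, and none of these 3 was called. Of 24 xenobiotic genes 6 rose and 4 fell (25% and 16.7%, near the shares of all genes).

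The list with the largest share of falls was that of male-biased genes, which growth hormone pulses keep on in male liver. Of 24 measured genes 16 fell and none rose (66.7%, median -0.40). Hsd3b5, a steroid enzyme of male liver, went from 70.2, 105, 70.6 and 71.8 CPM to 34.8, 29.1, 36.1 and 29.5 CPM (-1.30 ± 0.14, adjusted p = 6.2e-08). Susd4 changed by -0.94 ± 0.11 and Cyp2d9 by -0.98 ± 0.12, although Cyp2d genes are near copies and their reads are uncertain. Of 20 measured female-biased genes 5 rose and 1 fell, and the 25% that rose is near the 23.9% of all genes: Hao2 (0.80 ± 0.12), Cyp3a44 (1.13 ± 0.19), Tox and Cyp2a4 (1.40 ± 0.25, 160 against 479 counts) were among the rises, and Sult2a1 changed by -1.28 ± 0.26. Among 16 genes of growth hormone signalling 4 rose and 2 fell (25% and 12.5%), and the share that rose is near that of all genes. The feedback inhibitors Socs1 (0.56 ± 0.08, not called within 10 kb or 1 kb of the start) and Socs3 (0.42 ± 0.09) rose and Ghr, the receptor, changed by -0.20 ± 0.05.

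**Figure D4:**
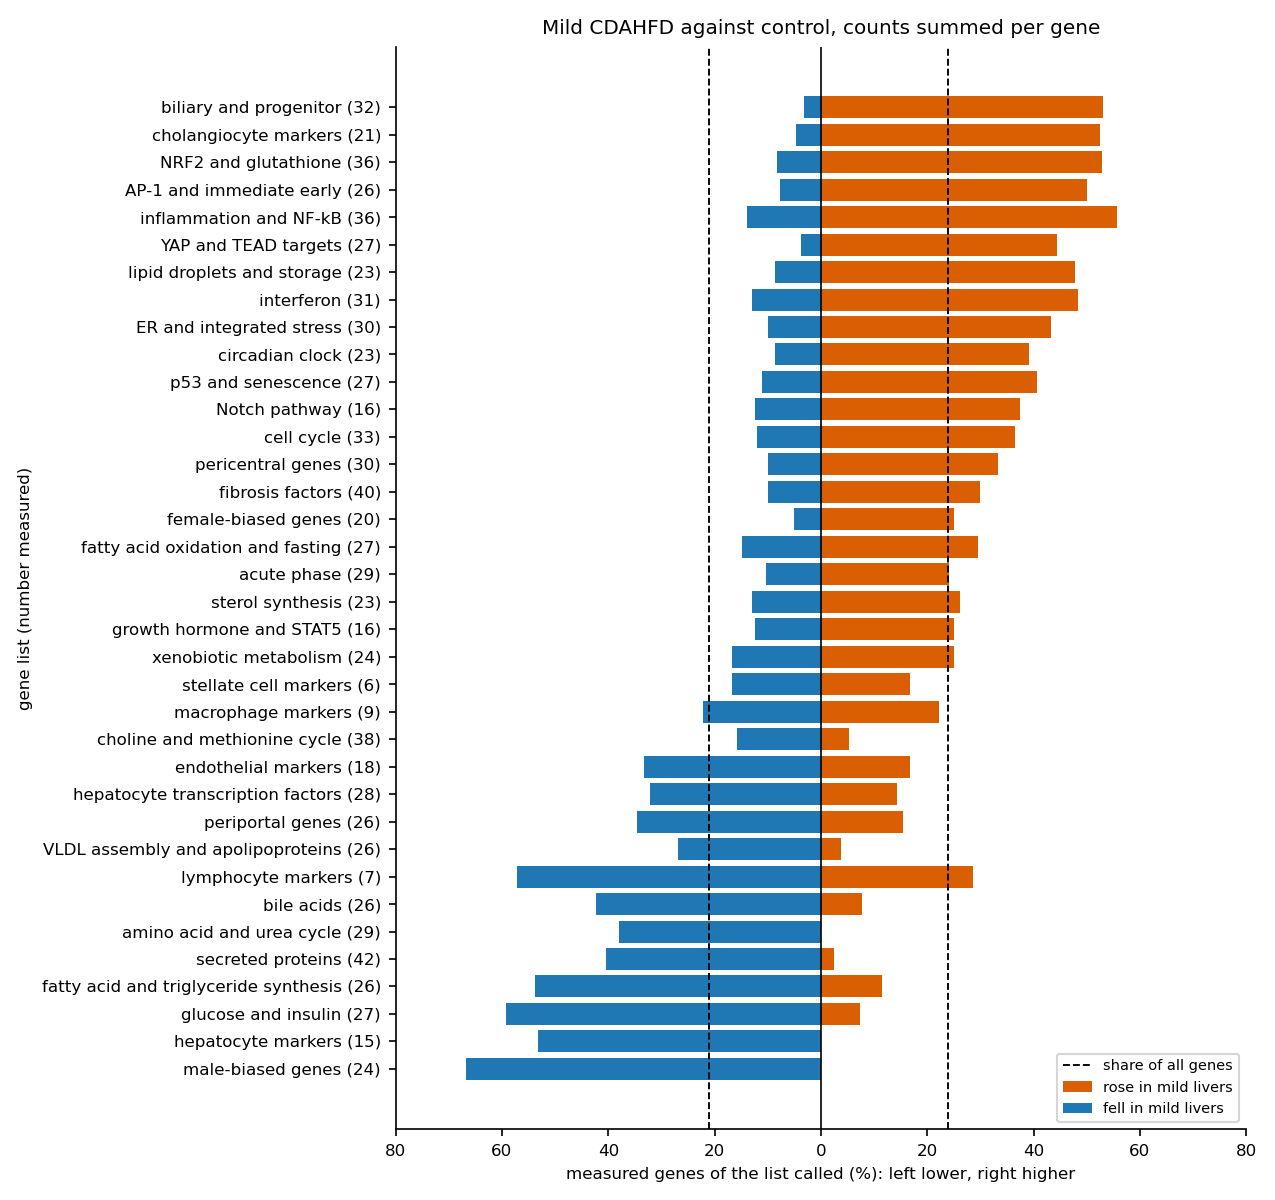
Percent of the measured genes of each of the 36 lists called lower (bars to the left) or higher (bars to the right) in mild CDAHFD livers, with dashed lines at the shares of all genes (21.0% and 23.9%). Male-biased genes (66.7%) and glucose and insulin genes (59.3%) reach farthest left, and inflammation genes (55.6%) farthest right.

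Among stress and immediate early genes more rose than fell. Among 26 genes of the AP-1 and immediate early list 13 gained and 2 lost accessibility (50.0% and 7.69%, median 0.18). Mafk, a small Maf partner of stress factors, went from 61.6 ± 7.6 to 129 ± 6.0 CPM (1.06 ± 0.08, adjusted p = 1.2e-10) and Maff, of the same family, from 33.4 ± 3.5 to 64.9 ± 3.1 CPM (0.95 ± 0.08). Ier3 (1.22 ± 0.15) and Klf6 (0.54 ± 0.05), early response genes, rose, and Klf10 changed by -0.35 ± 0.06 (-0.10 and not called within 10 kb of its start). Junb, a subunit of AP-1, rose by 0.30 ± 0.06 and Jun by 0.14 ± 0.05, whereas Fos (0.11 ± 0.08), Fosl2 (0.00 ± 0.05) and Atf3 (0.14 ± 0.06) were not called. These 5 AP-1 members were named after their values were seen.

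Among antioxidant genes more rose than fell. Of 36 NRF2 and glutathione genes 19 rose and 3 fell (52.8% and 8.33%, median 0.18, against 23.9% and 21.0% of all genes). Nqo1, a quinone reductase and classic NRF2 target, went from 12.7, 12.5, 12.9 and 15.1 CPM to 24.2, 23.1, 23.8 and 28.2 CPM (0.91 ± 0.09, adjusted p = 5.6e-08). Nfe2l1, a relative of NRF2, rose by 0.43 ± 0.04, Gpx4, which repairs lipid peroxides, by 0.51 ± 0.06 and Srxn1, sulfiredoxin, by 0.58 ± 0.09, while Me1, which is on this list as well, fell. The difference between diets was called at 8 of the 36. Glutathione transferases were among them: Gsta2 changed by 0.32 ± 0.07 on the CDAHFD and -0.46 ± 0.08 on FPC (difference 0.78), and Gsta4 by 0.55 ± 0.12 and -0.38 ± 0.12 (difference 0.93). At the Gsta2 promoter peak controls held 4.24, 5.24, 6.89 and 3.57 CPM and mild livers 20.7, 17.0, 18.1 and 18.9 CPM (1.88 ± 0.17), whereas on FPC the mean went from 19.0 to 12.6 CPM (-0.59). Gsta genes are near copies of each other, so their assignment is uncertain. Gsta4 and the gene sum of Gsta2 were named after their values were seen.

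Of 30 ER and integrated stress genes 13 rose and 3 fell (43.3% and 10%). Eif2ak3, the ER stress kinase PERK, went from 141 ± 10.5 to 229 ± 5.55 CPM (0.70 ± 0.06, adjusted p = 2.1e-09). The chaperones Canx (0.58 ± 0.06) and Hspa5 (0.56 ± 0.06) rose, and Pdia6, a disulfide isomerase, changed by -0.44 ± 0.07 (0.02 and not called within 1 kb of its start). Asns, asparagine synthetase, rose by 0.36 ± 0.15 and Phgdh, the first enzyme of serine synthesis, changed by -0.63 ± 0.19. Both differed between diets (0.99 and -1.02) and were named after their values were seen. Among 27 p53 and senescence genes 11 rose and 3 fell (40.7% and 11.1%, against 23.9% and 21.0% of all genes). Cdkn1a, the p21 cell cycle inhibitor, went from 19.9, 27.0, 28.7 and 19.0 CPM to 50.2, 52.8, 48.7 and 51.0 CPM (1.08 ± 0.12, adjusted p = 7.9e-08), and all 5 of its peaks rose. Mdm2, which degrades p53, changed by 0.32 ± 0.07, and the death receptor gene Tnfrsf10b by 1.66 ± 0.16. Of 33 cell cycle genes 12 rose and 4 fell (36.4% and 12.1%), led by Cdc20 (1.43 ± 0.15) and Mcm7 (0.61 ± 0.08).

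Clock genes, which vary with time of day and feeding, rose at 9 of 23 and fell at 2 (39.1% and 8.7%). Of all genes 23.9% rose and 21.0% fell. Csnk1e, a clock kinase, went from 36.9 ± 3.0 to 68.0 ± 2.5 CPM (0.87 ± 0.08), Arntl, the activator BMAL1, from 150 ± 3.6 to 201 ± 13 CPM (0.42 ± 0.06) and Dbp, an output gene, from 162 ± 23 to 240 ± 18 CPM (0.56 ± 0.09). Csnk1e was not called with only peaks within 1 kb of a start (0.23). The hour at which livers were taken is not given in the sources used here. Of 30 pericentral genes, which mark hepatocytes around the central vein and depend on Wnt signals, 10 rose and 3 fell. Axin2 (0.52 ± 0.06), Lgr5 (0.70 ± 0.12) and Aldh3a2 (0.63 ± 0.08) rose, while Glul, the classic pericentral gene, fell. Lgr5 was not called with only peaks within 1 kb of a start (0.28, adjusted p = 0.0504). Of 26 periportal genes 4 rose and 9 fell (15.4% and 34.6%).

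Among inflammatory genes more rose than fell in these nuclei. Of 36 genes of inflammation and NF-kB 20 rose and 5 fell (55.6% and 13.9%, median 0.24). Tnip1, an inhibitor of NF-kB, went from 78.3 ± 5.1 to 145 ± 12 CPM (0.88 ± 0.06, adjusted p = 1.4e-11). The membrane chemokine Cx3cl1 rose by 1.41 ± 0.17, the adhesion molecule Icam1 by 0.64 ± 0.09 and the inhibitor Nfkbie by 0.67 ± 0.10. Of 31 interferon genes 15 rose and 4 fell (48.4% and 12.9%, against 23.9% and 21.0% of all genes). Mx1, an antiviral GTPase, rose by 1.17 ± 0.13, while Irf5 (-0.60 ± 0.12), a factor of the pathway, fell. Within 1 kb of a start Mx1 was at 0.52 and Irf5 at 0.19, and neither was called. Among 29 acute phase genes 7 rose and 3 fell (24.1% and 10.3%), and the share that rose is near the 23.9% of all genes. The rises were led by Lcn2 (0.89 ± 0.14) and Mt1 (0.81 ± 0.14). Of 25 macrophage markers only 9 had a peak within 50 kb (2 rose and 2 fell), and their sum was 319 to 350 CPM in controls and 306 to 338 CPM in mild livers. Adgre1, Csf1r, Cx3cr1, Itgam and Spi1 were among those with a peak, and Clec4f, Timd4, Vsig4, Cd68 and Lyz2 among those without. Of 26 lymphocyte markers 7 had a peak (459 to 514 CPM in controls, 392 to 412 CPM in mild livers). Ptprc, Cd4 and Cd8a were among these, while Cd3e and Cd79a had none.

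Of 40 fibrosis factor genes 12 rose and 4 fell (30.0% and 10%, against 23.9% and 21.0% of all genes). Timp2, an inhibitor of matrix proteases, went from 26 to 147 counts over the 4 libraries (2.32 ± 0.27), Ctgf, a matricellular growth factor, from 17.0 ± 1.7 to 30.7 ± 2.3 CPM (0.85 ± 0.11), and Tgfb1, the main fibrogenic cytokine, from 7.18 ± 0.63 to 12.9 ± 1.6 CPM (0.84 ± 0.14, named after its values were seen). Gli2, a Hedgehog effector, changed by -0.95 ± 0.12 and Inhba by -0.49 ± 0.06. Of 22 stellate cell markers 6 had a peak (1 rose and 1 fell, sums 113 to 129 CPM in controls and 129 to 134 CPM in mild livers). Col1a1, Lhx2 and Reln were among those with a peak, and Acta2, Des, Lrat, Pdgfrb, Col1a2 and Col3a1 among those without. Of 23 endothelial markers 18 had a peak: 3 rose and 6 fell, Kdr by -0.93 ± 0.16, and the sum went from 678 to 732 CPM in controls to 615 to 635 CPM in mild livers.

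Biliary and progenitor genes, which mark bile ducts and injured hepatocytes, rose more often than they fell. Of 32 measured genes 17 rose and 1 fell (53.1% and 3.12%, median 0.22). Summed over 7 peaks, all of them higher, Anxa2 went from 30.2, 32.8, 28.1 and 31.3 CPM to 106, 98.6, 98.3 and 99.0 CPM (1.72 ± 0.09, adjusted p = 7.2e-13). Cldn4, a tight junction protein, rose by 0.80 ± 0.12, Tspan8 by 0.70 ± 0.09, and Cd24a, a progenitor surface marker, by 2.09 ± 0.38 (39 against 193.5 counts). Grhl2, an epithelial factor of bile ducts, had 6 counts in the 4 controls and 64.5 in the 4 mild livers. Of 27 targets of YAP and TEAD, effectors of Hippo signalling, 12 rose and 1 fell (44.4% and 3.7%). Of all genes 23.9% rose and 21.0% fell. Myof rose by 2.05 ± 0.20, Ajuba by 0.98 ± 0.12 and Crim1 by 0.63 ± 0.08. Of 16 Notch genes 6 rose and 2 fell (37.5% and 12.5%). Beside these gains, cholangiocyte markers moved: 11 of 21 rose and 1 fell (52.4% and 4.76%). Their sum was 795 to 984 CPM in controls and 893 to 1000 CPM in mild livers, and Cftr had no peak. Krt19 and Krt7, keratins that define bile duct cells, went from 12 to 63 and from 9 to 43.5 counts, and Epcam rose by 1.11 ± 0.27, while Tff2 changed by -1.34 ± 0.16. More bile duct nuclei in the pull-down and more open chromatin per nucleus cannot be told apart in these libraries, and the part of the former in the result was not tested.

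The largest rises of gene sums (at least 3 peaks, above-median abundance, no overlap) were near A730004F24Rik (3.22 ± 0.17), Ddr1, a collagen receptor (2.24 ± 0.14), 2010109I03Rik (2.17) and Mir23a (2.17). Ddr1 went from 16.4, 23.0, 20.3 and 17.4 CPM to 80.4, 74.9, 115 and 95.1 CPM with all 9 peaks higher, and rose less on FPC (0.84, difference 1.40, adjusted p = 0.000603). Tmem43 (1.85), Usp43 (1.80), Ttc39a (1.72), Lgals3, the glycan-binding galectin 3 (1.69), and Rarg, a retinoic acid receptor (1.64), followed with Anxa2. After Pnpla5, the largest falls were Trhde, a peptidase that inactivates thyrotropin-releasing hormone (-1.89 ± 0.14), Pard3b, a polarity protein (-1.82 ± 0.14), C530044C16Rik (-1.67), Adgrf1 (-1.63) and Prss35 (-1.51). Trhde went from 70.4, 70.8, 67.0 and 75.7 CPM to 22.4, 17.6, 13.5 and 22 CPM. Gm12718, Pcdh20, Hsd3b5 and Gm16325 fell by 1.42, 1.34, 1.30 and 1.19.

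Across all peaks the mild changes on the 2 diets, which share no library, went the same way more than they differed. Of peaks higher on the CDAHFD 50.7% were higher in mild FPC livers (7206 peaks, 69.3% of the FPC gains), and of the lower peaks 42.7% were lower (5884 peaks, 62.7% of the FPC losses). Only 73 were higher on the CDAHFD and lower on FPC, and 108 the reverse. The log2 changes correlated at 0.768 over peaks and 0.765 over genes (Pearson, Spearman 0.683 and 0.696, given as a description since peaks and genes share libraries). The difference itself was called at 2391 peaks (3.47%) and 827 genes. It was more positive on the CDAHFD at 1122 of the peaks and more negative at 1269. Apart from Pnpla5, Sult4a1 and Scd1, the named peaks of largest difference were Paqr9 (chr9:95577666-95577866, -1.57 on the CDAHFD and 0.98 on FPC, difference -2.55), exon 20 of Arid1a near Pigv (3.41 and 0.84, difference 2.56), Gsta2 (2.47), Mvp, the major vault protein (3.81 and 1.62, difference 2.19), and Mir181c (2.19).

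Advanced livers on the same diet shared controls with the mild ones, so their values are given only side by side. At all 10 most gained peaks the advanced mean lay above the mild mean: Osbpl3 held 24.6, 22 and 23.3 CPM and Anxa2 35.9, 44.7 and 34.7 CPM. The naming rule took abundance over all 22 libraries and so favoured gained peaks that were open in advanced livers. Of the most lost peaks, Pnpla5 held 1.5, 2.67 and 2.99 CPM and Scd1 1.92, 2.67 and 2.56 CPM in advanced livers, and neither difference was called (0.11 ± 0.44, adjusted p = 0.91, and -0.30, adjusted p = 0.70). Advanced and mild livers differed at 11385 peaks (16.5%), of which 6389 were higher and 4996 lower in advanced livers. Without advanced replicate 2 these counts were 4238 and 2617, and the lower peaks numbered 2853 without advanced replicate 1 and 3203 without mild replicate 4. The named ones with the largest rises were the promoter of Cd63, a tetraspanin (7.77, 7.44, 10.7 and 10.7 CPM in mild, 24.6, 30.4 and 28.6 CPM in advanced livers, 1.6), and peaks near Mir1953 (1.58), Rhoc (1.58) and Mir181c (1.54). The largest falls were in Prex1 (-2.77), where mild livers had changed by only -0.87, near Dkk4 (-2.74), at the A930013F10Rik promoter (-2.45) and in Camk2b (-2.27). Among the lists, biliary genes were higher in advanced than in mild livers at 16 of 32 and lower at none, against 9.63% and 7.76% of all genes (17.4% in all, 2729 genes, and 1611 genes without advanced replicate 2). For fatty acid synthesis these counts were 1 and 3 of 26.

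Losses were rarer at promoters than far from genes. Within 1 kb of a start 22% of 20072 peaks rose and 9.77% fell, and beyond 50 kb 17.9% of 12040 peaks rose and 31.2% fell. Changes over 2-fold made up 3.36% (higher) and 0.653% (lower) of the former and 9.90% and 9.39% of the latter. Peaks within 1 kb held 40.6, 41.7, 41.7 and 41.4% of counts in the controls and 43.3, 44.1, 44.6 and 42.5% in the mild livers, a difference of 2.31 percentage points (exact two-sided permutation test, p = 0.0286, the smallest that 70 splits can give).

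RefSeq promoter windows (250 bases before to 50 after a start) matched 10021 of the peaks within 1 kb, of which 2517 rose, 927 fell and 6577 were not called. Letters were searched for 27 motifs on both strands. The AP-1 letters TGANTCA were in 16.2% of the 328 windows whose peak rose over 2-fold (53 windows), 7.47% of all that rose, 4% of those not called, 3.78% of those that fell and 7.81% of all 32851 windows. The C/EBP letters TTGCNNAA were in 8 of the 42 windows that fell over 2-fold (19.0%), 12.1% of all that fell, 8.59% of those not called and 10.8% of all windows. The ETS letters CCGGAAGT were in 2.44% of windows that rose over 2-fold and 9.43% of those not called (3.89% of all windows), and the NRF1 letters GCGCATGCG in 0.305% and 4.38% (1.75% of all). Letters of some other factors differed little between windows that rose over 2-fold and those not called: small Maf with NRF2 (TGACNNNGC) in 14.9% and 15.1%, TEAD (GGAATGT) in 3.05% and 2.40%, and IRF (TTTCNNTTT) in 7.01% and 7.15%. Others differed more, on few windows: NF-kB (GGGANTTCC) in 3.96% (13 windows) and 2.24%, and SOX (ACAATGG) in 3.35% (11 windows) and 1.55%. ONECUT letters (ATCAATCA) were in 1.62% of windows that fell (15 windows) and 0.198% of those not called. Not all 27 motifs are given here. The small Maf and AP-1 letters can overlap on the same bases, none of the first 4 motifs contains another, and a match is not a bound site. Change was little related to the GC content of the window (Pearson 0.03, Spearman 0.05 over 10021 peaks, a description).

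**Figure D5:**
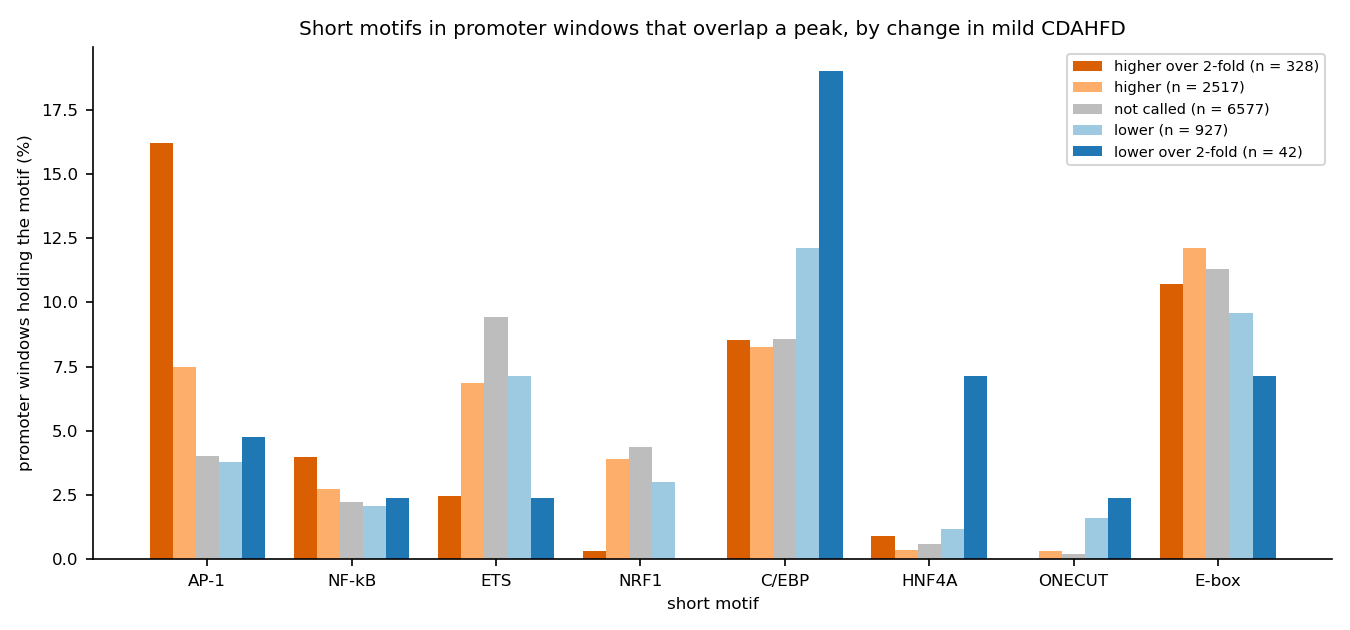
Percent of RefSeq promoter windows that hold each of several short motifs, by the change of the peak in mild CDAHFD livers. AP-1 letters are in 16.2% of windows that rose over 2-fold and 4% of windows not called, and C/EBP letters are most frequent (19.0%) in the 42 windows that fell over 2-fold.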

How the data were processed

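ATAC-seq libraries of 22 mice were analysed, each from a different mouse, and the labels name no sequencing batch. The submitters' processing notes name DESeq2, HOMER, SAMtools and BWA (0.7.5a-r405) and the build mm10, in no stated order. The authors' deposited un-normalized table gives expected counts per peak in steps of 0.5 (47.8% of values end in 0.5, for a reason not given here), with the nearest start, gene and region type. Other deposited tables were not used.

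Counts were rounded and tested in R 4.3.3 with edgeR 4.0.16 (TMM scaling, all 22 libraries in 6 groups, quasi-likelihood test). Calls had a Benjamini-Hochberg adjusted p under 0.05 over all 68827 peaks or 15686 genes, and filterByExpr removed no peak. The SE is the log2 change over the square root of F, and is unreliable where a group held almost no counts. For genes, counts were summed over the 56777 peaks whose nearest start lay within 50 kb. Total counts of 5952280 to 9328963 in the 8 libraries set the precision. On data simulated for this comparison 44.8%, 83.6% and 100% of peaks changed 1.5-, 2- and 4-fold were recovered with 9 false calls, and 86.6%, 100% and 100% of genes with 5. Only 67, 67 and 66 peaks or genes were changed at these folds, against 27999 peaks called in the real data. The simulated rates therefore do not describe a comparison with so many changes.

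Named peaks were those that changed most among calls, once per gene. They lay above the median abundance over all 22 libraries, without overlap between groups and at most 50 kb from a start. There were 10 in each direction, and 4 in each for the difference between diets and for advanced against mild. Genes were named by smallest p, up to 5 per list, and by size of change. Loci were those with most calls, and Scd1 and Pnpla5 were added after values were seen. The members, the 36 lists (1023 genes, 812 with a peak) and the tests were chosen with earlier results of these data known. No genome was used, so sequences are RefSeq promoter stretches chosen after values were seen, in place of named peaks. Alternatives were DESeq2 1.42.0, its size factors, cyclic loess (limma 3.58.1), a count minimum of 50, rounding down, the 8 libraries alone, narrower gene windows and leaving out each library. Some genes that the naming rule picks are not reported here.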

Additional observations from a re-analysis of the deposited data

Results flagged for a closer look

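The change from control differed between the CDAHFD and FPC in mild livers, by the test of the difference itself, at 14 named peaks. As CDAHFD change minus FPC change on the log2 scale, it was positive near Gpat3 (1.76), Mir181c (2.19), 9130401M01Rik (1.71), Pigv (2.56), Gsta2 (2.47) and Mvp (2.19), and negative near Pnpla5 (-4.64), Pard3b (-2.08), Dmbt1 (-1.94), Mir708 (-1.62), Scd1 (-3.25), Gm30332 (-1.39), Sult4a1 (-3.83) and Paqr9 (-2.55).

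Of 177 named gene sums 31 differed between the diets. Among lipid, sugar and sterol genes these were Pnpla5 (-3.61), Acaca (-1.06), Me1 (-0.72), Elovl3 (-0.74), Mgll (-0.32), Pklr (-0.77), Pygl (-0.40) and Sqle (0.99). Stress, p53 and clock genes were Trib3 (0.55), Eif2ak3 (0.38), Hspa5 (0.31), Nfe2l1 (0.21), Mdm2 (0.38), Klf6 (0.43), Klf10 (-0.35) and Arntl (0.31). Immune genes were Tnip1 (0.37), Irf5 (0.73) and Zap70 (0.49). The rest were Ddr1 (1.40), Mir23a (0.94), Lgals3 (0.86), Rarg (0.82), Tspan8 (0.45), Trhde (-0.95), Pard3b (-0.93), Prss35 (-1.11), Glul (-0.76), Cyp2d9 (-0.73), Lhx2 (-1.43) and Tff2 (-1.15).

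A single library lay far from the other 3 of its group at 2 of 68 groups of values, and chance gives about 1 in 20. The groups covered named peaks, total counts, promoter share and the second principal component. The second-component value of mild replicate 4 was not flagged, and both flags were at named peaks. These were control replicate 2 at the Slc45a2 peak (12.9 CPM, others 24.3 to 26.4) and mild replicate 4 at the Sult4a1 peak (6.28 CPM, others 4.14 to 4.21).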

How the results depend on the processing

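No paired analysis was possible because no mouse gave more than 1 library and replicate numbers only name libraries. With DESeq2's Wald test 13979 peaks were higher and 12835 lower, and with its size factors, cyclic loess or the 8 libraries alone 13063 to 14550 and 12254 to 13655. When only peaks with at least 50 counts in 4 of 8 libraries were tested, 8218 were higher and 8421 lower. With promoter peaks alone 2476 genes were higher and 2246 lower (3754 and 3296 otherwise), and why was not tested. With cyclic loess 4143 peaks were higher in advanced than in mild livers (6389 otherwise), and the cause was not tested.

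Leaving out each library in turn gave 12493 to 13496 higher and 11849 to 14052 lower peaks, 3110 to 3441 higher and 2986 to 3444 lower genes, and 1598 to 3214 peaks and 567 to 946 genes that differed between diets. For advanced against mild livers it gave 4238 to 6419 higher peaks (4238 without advanced replicate 2), 2617 to 4814 lower peaks (4996 with all; 2853 without advanced replicate 1, 2617 without advanced replicate 2, 3203 without mild replicate 4) and 1611 to 2702 genes (1611 without advanced replicate 2). The promoter share difference was 1.99 to 2.70 points. By the exact permutation test p was 0.0571 without any one control, a weaker result. It was 0.0286 without any one mild library, so 0.0571 is not the smallest that 3 against 4 libraries allow.

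Of 3398 values of 213 named peaks and genes under 20 alternatives, 3359 kept direction and side of the threshold, 30 lost the call and 1 gained it. The 8 reversals came from narrower gene windows: with promoter peaks alone Scap 0.051, Nfib 0.051, Gc 0.11, Irf5 0.19, Serpina3n -0.12 and Pdia6 0.020, and within 10 kb Slco1b2 0.094 and Col1a1 0.86. Only Col1a1 was called in its reversed direction (quasi-likelihood test, adjusted p = 0.0019). It was higher within 10 kb, whereas its change within 50 kb was negative.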

Other observations

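Changes were uneven over chromosomes. On chromosome 19 29.7% of peaks rose and 9.85% fell, on chromosome 11 27.3% and 12.2% and on chromosome 7 27.1% and 14%, whereas on chromosome X 12.4% rose and 18.6% fell, on chromosome 13 15.8% and 24.5% and on chromosome 10 16.1% and 25.6%. By the authors' annotation, peaks in exons rose at 12.1% and fell at 25.5%, and intergenic peaks at 20.9% and 25.2%. When peaks were split by abundance into 4 bins, 31.1% rose and 20.9% fell in the lowest bin, and 17.7% and 20.2% in the highest.

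The stellate cell list held the matrix proteoglycan gene Bgn, whose single peak went from 5.19 ± 1.6 to 17.6 ± 2.1 CPM (log2 change 1.74 ± 0.18, SE, n = 4 each), and the macrophage list Cd14, the endotoxin co-receptor, which rose by 0.69 ± 0.14. Among endothelial markers Tie1 changed by -0.91 ± 0.13 and among lymphocyte markers Cd4 by -0.72 ± 0.10.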
